A study of Mus musculus with 2 samples.

Results

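The CC chemokines described here were Ccl2, Ccl3, Ccl4, Ccl5, Ccl6, Ccl7, Ccl9, Ccl12, Ccl17 and Ccl22, 10 genes chosen by symbol, of which 9 were among the 16023 genes measured on both arrays of the study. They were found as the non-control probes whose gene name on both arrays was one of these symbols, which gave 12 probes printed in 21 spots. RNA of RAW 264.7, an established mouse macrophage-like cell line that can become osteoclast-like under the cytokine RANKL, was hybridised to 2 Agilent 1-colour arrays. The first array held cells of the treatment group RCCS, a rotating culture vessel that models microgravity and in which they spent 24 h, and the second held ground-based control cells. The protocol gives RANKL at 80 ng/ml for 24 h in the same words for both samples, and does not settle whether the control cells received it too. Each group had 1 array, so no test between the groups was possible, no difference has a replicate check, and each difference below is between these 2 arrays. In such bulk RNA, fewer cells of a kind and less RNA per cell cannot be told apart.

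Chemokines are small secreted proteins that steer the movement of leukocytes through G-protein-coupled receptors, and the CC family takes its name from a pair of adjacent cysteines near the start of the mature protein. Macrophages are a major source of them. The ligands of CCR2 (Ccl2, Ccl7 and Ccl12 in the mouse) are known for drawing monocytes out of bone marrow and blood, whereas Ccl3, Ccl4 and Ccl5 draw both monocytes and lymphocytes, Ccl3 and Ccl5 in part through CCR1. Ccl5 is known as a gene switched on by interferon regulatory factors and NF-kappaB, and Ccl2 as a gene switched on by NF-kappaB and AP-1 factors.

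The values are the scanner's processed signals, in intensity units, and the log2 ratio of RCCS over control after each array was divided by its own 75th percentile, which was 966 with RCCS and 849 in the control. The "±" after a log2 ratio is the half-width of a 95% interval built from the error that the scanner software assigns to a spot, and it covers no spread between cultures, extractions or labellings. Signal stood well above background for 24936 of 41171 probes (60.6%) on the RCCS array and for 23693 (57.5%) on the control one. Both arrays lay on the same slide and were scanned together per the file headers. Over all measured genes the median log2 ratio was -0.13. The RCCS array had 622 genes (3.88%) higher by 2-fold or more and 603 genes (3.76%) lower by as much. These counts were 833 higher and 416 lower with scaling at the 75th percentile of measured probes, 1201 and 261 with scaling on spike-in probes, 756 and 434 with loess normalization, and 415 and 248 with normexp background correction and quantile normalization.

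The ligands of CCR2 and Ccl5 lay towards opposite ends of the measured genes. Ccl7, Ccl2 and Ccl12 were higher on the RCCS array, by 13.6-fold, 3.75-fold and 2.50-fold. Ccl5 was 13.3-fold lower. Of the 10 CC chemokines, 9 were measured on both arrays: 3 were at least 2-fold higher, where 3.88% of all measured genes were, 1 was at least 2-fold lower, where 3.76% of all measured genes were, and 5 stayed within 2-fold. Their median log2 ratio was 0.20, or 0.33 above the median of all genes, and 0.22 without Ccl5. The CCR2 ligands had 3 of 3 genes at least 2-fold higher and a median of 1.91, and Ccl3, Ccl4 and Ccl5 had 0 of 3 higher, 1 of 3 lower and a median of 0.05. These counts carry no test.

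**Figure D1:**
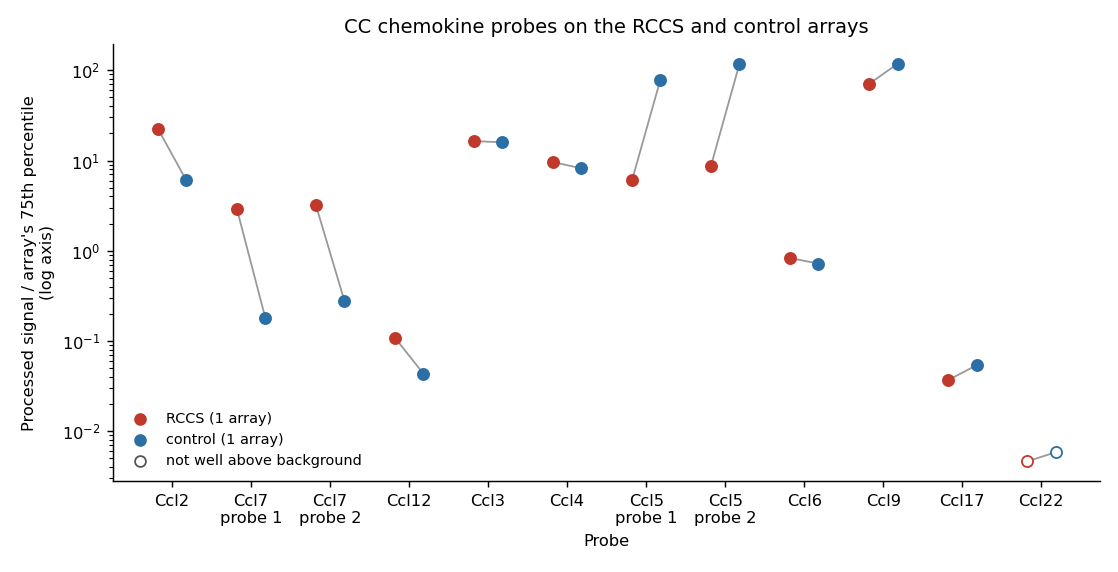
Processed signal of each of the 12 CC chemokine probes divided by its array's 75th percentile (log axis), with the RCCS array in red to the left of the control array in blue and a line joining the 2 values of a probe. Lines slope down to the right for Ccl2, both Ccl7 probes and Ccl12, slope steeply up for both Ccl5 probes, and lie nearly flat for Ccl3, Ccl4 and Ccl6; open circles mark Ccl22, not well above background on either array. Heights of different probes are not comparable.

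Ccl7, a monocyte attractant that binds CCR2 and other receptors, had a pair of probes. The first read 2815 on the RCCS array, against 154 on the control array, and the second read 3102 on the RCCS array, against 239 on the control array. Both probes were well above background on both arrays, and after scaling they were 16.1-fold and 11.4-fold higher on the RCCS array. The gene's log2 ratio was 3.76 ± 0.29, which ranked 16 from the highest of 16023 genes. Its probes lay 0.49 apart on the log2 scale, and with a half-width of 0.41 each their intervals overlapped.

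Ccl2, the best known monocyte attractant of the family, was printed in 10 spots. On the RCCS array the spots read 20747 at the lowest, 21943 at the median and 23089 at the highest, against 4749, 5108 and 5526 on the control array. Every RCCS spot was above every control spot, and the signal had a coefficient of variation of 3.70% over the RCCS spots and 4.43% over the control spots. The mean signal was 21842 ± 807 with RCCS and 5128 ± 227 in the control (SD over 10 spots of 1 array, which are not replicates of the culture). The ratio taken spot by spot lay between 1.86 and 1.95 on the log2 scale, with a mean of 1.91 ± 0.03 (SD, n = 10 spots). By the software's own larger error it was 1.91 ± 0.40, and the gene ranked 135 from the highest. The software read 7 of the 10 RCCS spots from the low-gain scan, against 0 of the 10 control spots. Those 7 spots gave a mean log2 ratio of 1.90 and the other 3 gave 1.91, which differ by less than the SD over spots.

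**Figure D2:**
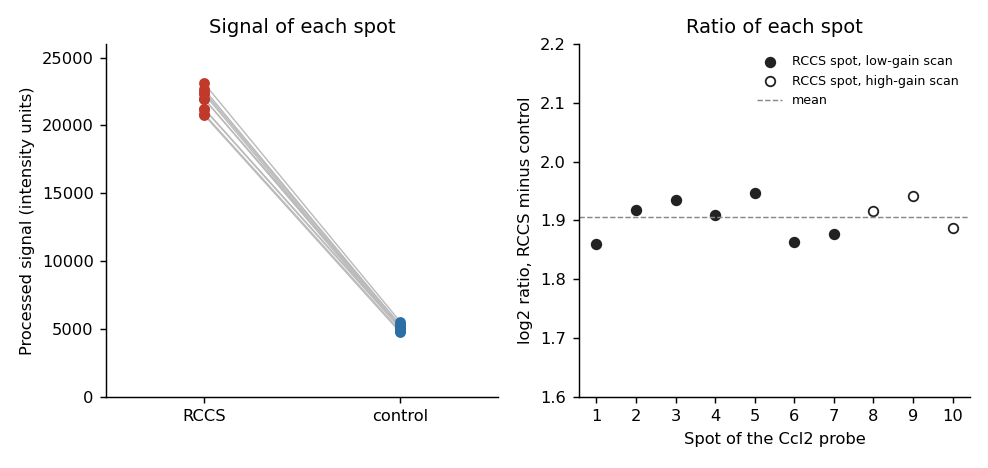
The 10 spots of the Ccl2 probe. Left, processed signal in intensity units of each spot on the RCCS and control arrays, with lines joining spots at the same position; right, the log2 ratio of each spot, RCCS minus control, filled where the RCCS spot was read from the low-gain scan and open where it was read from the high-gain scan, with a dashed line at the mean of 1.91. All 10 ratios lie between 1.86 and 1.95 on an axis that spans only part of a 2-fold change.

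Ccl12, a CCR2 ligand described in the mouse, had a dim probe. It read 105 on the RCCS array, against 37.0 on the control array, well above background on both, and the log2 ratio was 1.32 ± 0.57. It ranked 314 from the highest. Probes called well above background had signals of 21.2 or more on the RCCS array and of 24.2 or more on the control array, so the control value stood close to that limit. With normexp background correction, which adds an offset to every signal, the ratio was 0.48 or 0.56 and no longer 2-fold. Ccl12 thus counts as 2-fold higher only without that correction. With the same half-width of 0.57, its interval included 0 under these 2 normexp settings and excluded it under the other 10 of 12 alternatives.

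Among the CCR2 ligands the sizes differed. The log2 ratio of Ccl7 exceeded that of Ccl2 by 1.86 ± 0.49 and that of Ccl12 by 2.44 ± 0.64, both beyond spot error. The log2 ratio of Ccl2 exceeded that of Ccl12 by 0.58 ± 0.70, which is within it, although with quantile or loess normalization (0.81 and 0.76) and with normexp correction (1.43 and 1.58) the difference passed 0.70.

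Of the RefSeq promoter table of build GRCm38.p6, 6 of the 10 genes matched (Ccl3, Ccl6, Ccl9, Ccl12, Ccl17 and Ccl22). The 250 bases before the start of each were searched for 5 short motifs: GAAANNGAA, the interferon response element, held by 7.12% of all 32817 promoters of that length; GGANTTTCC for NF-kappaB, held by 1.07%; TGANTCA for AP-1, held by 6.75%; TTGCNNAA for C/EBP factors, held by 9.57%; and the TATA box TATAAA, held by 7.6%. Each motif was searched on both strands except the TATA box, which was searched on the gene's own strand alone. The promoters printed are those of Ccl12, as the CCR2 ligand with an entry, and of Ccl3 and Ccl9, as genes near Ccl5 on chromosome 11 with a match. Capitals mark the matches: in Ccl12 (chr11:82101595-82101844, plus strand) a TATA box that begins 31 bases before the start, in Ccl3 (chr11:83649379-83649628, minus strand) an interferon response element on the opposite strand 39 bases before the start, and in Ccl9 (chr11:83578637-83578886, minus strand) a TATA box at 92 bases and an AP-1 motif at 53 bases before it.
Ccl12: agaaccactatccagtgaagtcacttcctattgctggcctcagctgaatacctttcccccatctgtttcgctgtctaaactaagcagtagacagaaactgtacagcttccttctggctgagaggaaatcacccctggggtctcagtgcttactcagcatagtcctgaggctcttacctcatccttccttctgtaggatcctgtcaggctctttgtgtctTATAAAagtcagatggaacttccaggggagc
Ccl3: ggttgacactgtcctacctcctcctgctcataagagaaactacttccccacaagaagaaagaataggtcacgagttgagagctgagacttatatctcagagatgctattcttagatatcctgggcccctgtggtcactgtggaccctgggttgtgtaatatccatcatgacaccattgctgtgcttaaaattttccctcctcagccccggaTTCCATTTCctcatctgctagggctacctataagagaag
Ccl9: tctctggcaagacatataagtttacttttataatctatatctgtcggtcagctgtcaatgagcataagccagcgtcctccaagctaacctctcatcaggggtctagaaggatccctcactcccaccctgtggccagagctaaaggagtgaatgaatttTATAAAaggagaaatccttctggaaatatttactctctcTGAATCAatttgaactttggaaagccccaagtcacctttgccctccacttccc
The matches did not overlap one another, and a match is a run of letters, not evidence of a bound factor. The windows of Ccl6, Ccl17 and Ccl22 held 0 matches to the 5 motifs, which says only that these letters are not in those windows. The NF-kappaB and C/EBP letters stood in 0 of the 6 windows.

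Ccl5, known as RANTES, an attractant of T cells and monocytes, was the only CC chemokine lower by 2-fold or more. Its first probe read 5808 on the RCCS array, against 67036 on the control array. Its second probe read 8462 on the RCCS array, against 99905 on the control array. Both were far above background on both arrays, and the ratios of the 2 probes lay 0.03 apart on the log2 scale, at 13.1-fold and 13.4-fold lower. The gene's log2 ratio was -3.73 ± 0.28, and only 4 of the 16023 measured genes had a lower one. The control spots of both probes were read from the low-gain scan and the RCCS spots from the high-gain scan, and 0 spots of the CC chemokine probes were saturated.

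Ccl3 and Ccl4, also called MIP-1alpha and MIP-1beta, attract monocytes and lymphocytes like Ccl5 and did not share its ratio. Ccl3 read 15883 on the RCCS array, against 13509 on the control array, a log2 ratio of 0.05 ± 0.40. Ccl4 read 9279 on the RCCS array, against 6961 on the control array, a log2 ratio of 0.23 ± 0.40. After scaling the folds were 1.03 and 1.17. The interval of Ccl3 included 0 under all 12 alternative settings. That of Ccl4 included 0 here and under 8 of 12 settings, and excluded it with quantile normalization (0.46), loess normalization (0.47), normexp correction with quantile normalization (0.48) and scaling on spike-in probes (0.54). The log2 ratio of Ccl3 exceeded that of Ccl5 by 3.78 ± 0.49 and the log2 ratio of Ccl4 exceeded it by 3.96 ± 0.49, while Ccl4 and Ccl3 differed by 0.18 ± 0.57. The difference between Ccl5 and the CCR2 ligands was larger still, at 5.05 ± 0.64 for Ccl12, 5.64 ± 0.49 for Ccl2 and 7.49 ± 0.40 for Ccl7.

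Ccl6 and Ccl9 are myeloid CC chemokines of rodents that bind CCR1, and Ccl9 is known as a product of osteoclasts. Ccl9 read 68268 on the RCCS array, against 100013 on the control array, a log2 ratio of -0.74 ± 0.40, or 1.67-fold lower. It stayed within 2-fold. Its interval excluded 0 here and under 9 of 12 alternatives, and included 0 with quantile (-0.34), loess (-0.36) and normexp with quantile normalization (-0.35). Ccl6 read 802 on the RCCS array, against 613 on the control array, a log2 ratio of 0.20 ± 0.40, whose interval included 0 here and in all alternatives but scaling on spike-in probes (0.51). The log2 ratio of Ccl9 was below that of Ccl6, with a difference of -0.94 ± 0.57. That difference was -0.52 with quantile normalization and -0.49 with normexp and quantile normalization, both within the half-width.

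Ccl17 and Ccl22, ligands of CCR4 that attract helper and regulatory T cells, gave little signal. Ccl17 read 35.6 on the RCCS array, against 45.8 on the control array, a log2 ratio of -0.55 ± 0.64 that includes 0. Ccl22 read 4.48 on the RCCS array and 4.97 in the control, not well above background on either, so it has no ratio.

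In the annotation of GRCm38.p6 the members other than Ccl17 and Ccl22 lie on chromosome 11 in a pair of groups. The order is Ccl2, Ccl7, Ccl11, Ccl12, Ccl8 and Ccl1 in the first group and Ccl5, Ccl9, Ccl6, Ccl3 and Ccl4 in the second, while Ccl17 and Ccl22 lie on chromosome 8. The genes at least 2-fold higher were all in the first group, and the only gene at least 2-fold lower, Ccl5, opens the second. Of the genes of the first group that were not chosen as members, Ccl8, known in humans as a monocyte attractant, read 223 on the RCCS array and 13.1 in the control. It failed the background call in the control, and was at least 8.12-fold higher. Ccl11, an attractant of eosinophils, read 4.78 on the RCCS array and 5.38 in the control, and Ccl1, an attractant of T cells and monocytes, read 12.4 on the RCCS array and 25.7 in the control. Neither gene was well above background on either array. Between Ccl1 and Ccl5 lie 19 other measured genes, of which 0 were at least 2-fold higher (3.88% of all measured genes were) and 2 lower (3.76% of all were), Slfn5 and Slfn9, with a median log2 ratio of -0.44. Several Slfn genes are known to be induced by interferon.

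**Figure D3:**
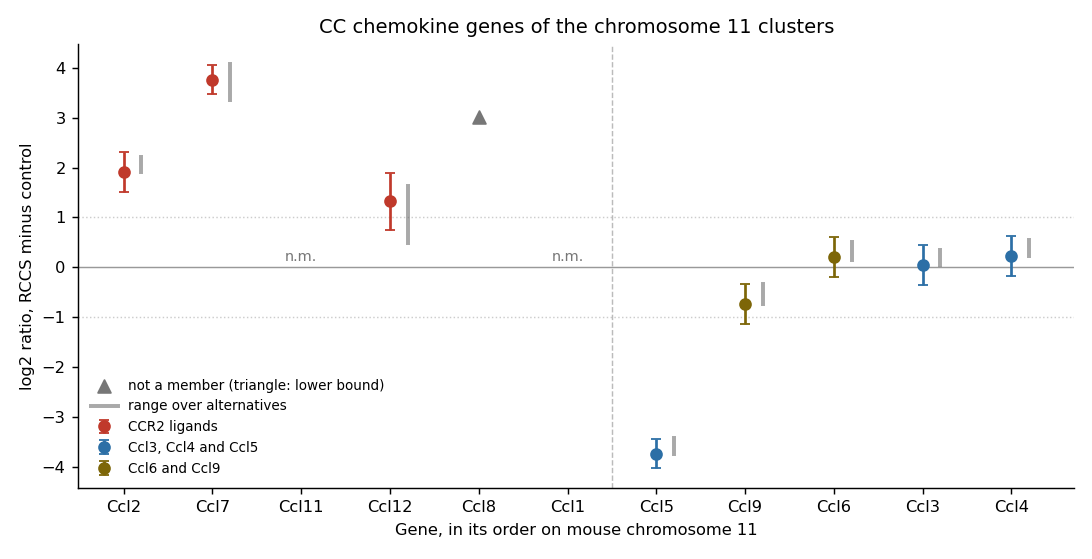
Log2 ratio, RCCS minus control, of the CC chemokine genes on chromosome 11 in their order on the chromosome (not to scale), with bars for the 95% spot-error interval, grey bars for the range over 12 alternative settings, a triangle for a lower bound, and n.m. for genes not well above background on either array. The dashed line separates the 2 groups and the dotted lines mark 2-fold; Ccl2, Ccl7, Ccl12 and Ccl8 lie above the upper dotted line on the left, and Ccl5 alone lies below the lower one on the right.

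The other CC chemokine ligands on the array added few measured genes. Of 13 further ligands 10 had a probe, and 2 of these were measured on both arrays: Ccl25, a ligand of CCR9, at 0.49 ± 0.29 and Ccl19, a ligand of CCR7 with near-identical copies in the mouse genome, at 0.08 ± 0.39. Ccl24, an eosinophil attractant, read 45.1 on the RCCS array and 11.1 in the control. It passed the background call only with RCCS. Its bound was 1.64-fold higher (0.72 on the log2 scale), beside half-widths of 1.17 and 1.72 for its probes. Ccl28 read 18.4 on the RCCS array and 28.3 in the control. It passed the background call only in the control. Its bound was 1.52-fold lower (-0.60 on the log2 scale), beside a half-width of 0.96. The other 5 were not well above background on either array.

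The receptor of the higher ligands was itself higher. Ccr2, the receptor of Ccl2, Ccl7 and Ccl12, read 231 on the RCCS array, against 47.1 on the control array, a log2 ratio of 2.11 ± 0.54, or 4.32-fold. Its second probe read 28.5 on the RCCS array and 17.2 in the control, passed the background call only with RCCS and gave only a bound of at least 1.04-fold. Over the alternatives the log2 ratio of Ccr2 lay between 1.19 and 2.42. Ccr1, a receptor of Ccl3, Ccl5, Ccl6 and Ccl9, read 32.8 on the RCCS array and 6.55 in the control, well above background on the RCCS array alone, and was at least 1.19-fold higher. Ccrl2, an atypical chemokine receptor, was at 0.76 ± 0.29.

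Among all 15 receptors and decoy receptors, 7 were measured on both arrays, with 1 higher and 2 lower by 2-fold or more, beside 3.88% and 3.76% of all measured genes. The median was 0.12, below 0 in 2 of 12 alternatives and at 0 in 1. The lower ones were Ackr2, a decoy receptor that takes up inflammatory CC chemokines, with 24.8 on the RCCS array and 56.7 in the control (-1.38 ± 0.70), and Ccr9, with 30.0 on the RCCS array and 65.1 in the control (-1.30 ± 0.62). Both probes were dim, and both ratios were under 2-fold with normexp correction, that of Ccr9 also with scaling on spike-in probes. Of 20 genes of chemokine receptor signalling, from G-protein subunits to guanine nucleotide exchange factors, 19 were measured and 0 passed 2-fold in either direction, where 7.65% of all measured genes did. Over the alternatives 0 or 1 passed in each direction. Their median was -0.00 and turned above 0 in 8 of 12 alternatives. The largest ratio was that of Rgs16, a brake on G-protein signalling, at -0.999, just short of 2-fold lower. Next were the kinase gene Ptk2b at 0.75, the lipid kinase gene Pik3cg at 0.69 and the phospholipase gene Plcb2 at -0.68.

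Ccl5 was lower together with genes of the interferon response. Of 24 genes of interferon production and response 22 were measured, 16 were at least 2-fold lower, where 3.76% of all measured genes were, and 0 were at least 2-fold higher; the median log2 ratio was -1.88. Irf7, a transcription factor known to switch on type I interferon genes and Ccl5, read 6882 on the RCCS array, against 52759 on the control array, a log2 ratio of -3.12 ± 0.40. Oasl2 and Isg15, both textbook interferon-induced genes, had log2 ratios of -4.27 and -4.23, and the interferon-induced CXC chemokine Cxcl10 had -2.15. Other lower genes of the list were Ifit1, Ifit2, Ifit3, Mx1, Mx2, Rsad2, Oas1a, Usp18, Cxcl11, Stat2 and Irf1, with log2 ratios between -3.56 for Ifit3 and -1.12 for Irf1. Genes upstream of that response stayed within 2-fold, with Irf3 at -0.23, the kinase gene Tbk1 at 0.08 and the interferon receptor genes Ifnar1 and Ifnar2 at 0.53 and 0.31. The interferon gene Ifnb1 read 12 on the RCCS array and 8.88 in the control, not well above background on either. The ratios of Ccl2, Ccl7 and Ccl12 had the opposite sign to the median of this list.

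For factors known to act on many chemokine genes, the medians of both lists stayed within 2-fold. In the NF-kappaB list 10 log2 ratios were below 0 and 3 above it. In the AP-1 and C/EBP list 5 were below 0 and 6 above it. Of 14 genes of NF-kappaB factors and regulators 13 were measured, 1 was at least 2-fold higher and 1 lower (3.88% and 3.76% of all measured genes were), and the median was -0.24, which turned above 0 in 1 of 12 alternatives. Nfkbiz, a nuclear partner of NF-kappaB, read 517 on the RCCS array, against 85.9 on the control array (2.40 ± 0.43). Nfkb2, a subunit of the non-canonical arm of the pathway, read 1854 on the RCCS array, against 4661 on the control array (-1.52 ± 0.40). The subunit gene Rela was at -0.06 and the inhibitor gene Nfkbia at -0.57. Of 11 genes of AP-1 and C/EBP factors all were measured, 2 were at least 2-fold higher and 0 lower (3.88% and 3.76% of all measured genes were), and the median was 0.10, below 0 in 1 of 12 alternatives. Atf3, a stress-induced factor, read 2062 on the RCCS array, against 713 on the control array (1.35 ± 0.40), and Jun read 435 on the RCCS array, against 183 on the control array (1.06 ± 0.41). Jun was under 2-fold in 2 of 12 alternatives, at 0.82 at its lowest. The C/EBP genes Cebpd (0.996 ± 0.40, just short of 2-fold) and Cebpb (0.74 ± 0.28) were at least 2-fold higher in 7 and 4 of 12 alternatives. The count of the list lay between 2 and 4. The part of any of these factors in the chemokine ratios was not tested.

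**Figure D4:**
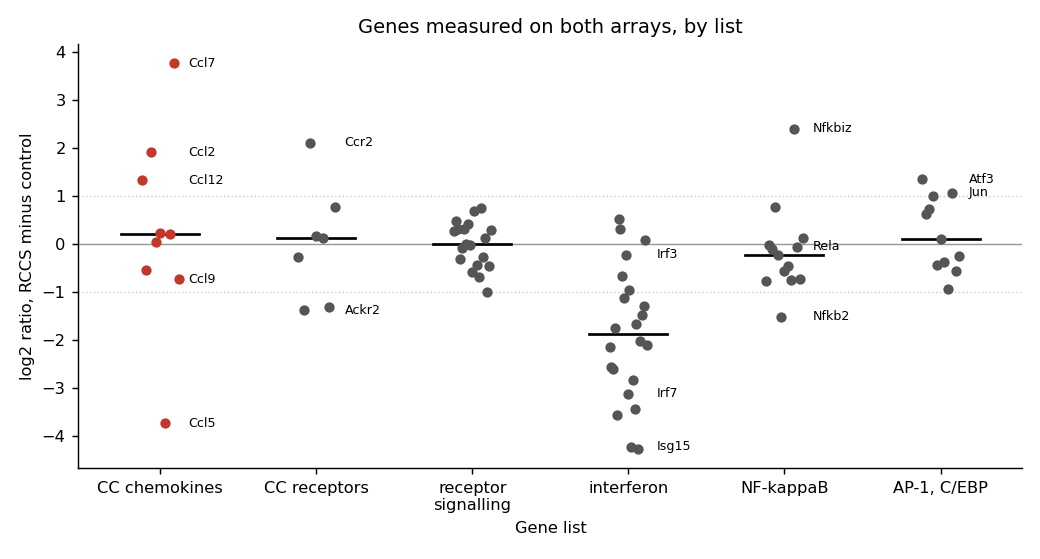
Log2 ratio, RCCS minus control, of every gene measured on both arrays in 6 lists, 1 point a gene, with a bar at the list's median, dotted lines at 2-fold and points spread sideways for legibility. The CC chemokines in red run between Ccl5 at -3.73 and Ccl7 at 3.76 around a median of 0.20, while the interferon list centres on -1.88 and the receptor signalling genes lie within 2-fold.

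Markers of the line and of other cells were set beside these values. Of 9 macrophage markers 7 were measured on both arrays, and all but Itgam stayed within 2-fold. Csf1r, the receptor that defines macrophages, read 25469 with RCCS and 21631 in the control as an average of 3 probes (0.05 ± 0.23). Those probes differed in sign, with log2 ratios of 0.33, -0.40 and 0.22. Itgam, the integrin subunit CD11b, was at 2.0 ± 0.28, while Mrc1 and Mertk were not well above background on either array. The defining markers Cd3d and Cd8a of T cells, Cd79b and Ms4a1 of B cells, and Pecam1, Cdh5 and Kdr of endothelium were not well above background on either array. Of the 5 fibroblast markers 2 passed the background call only with RCCS, Dcn and Col1a1. The first Dcn probe read 462 on the RCCS array and 15.2 in the control, at least 16.8-fold higher. The second read 28.4 on the RCCS array and 5.61 in the control, at least 1.03-fold higher. Averaged over the probes that passed, the lower bound was 4.17-fold for Dcn and 1.11-fold for Col1a1. Of the other 3, Col1a2 was measured on both arrays at -0.55 ± 0.46, Pdgfrb on neither, and the probes of Col3a1 disagreed, with 1 lower by at least 2.34-fold, 1 higher by at least 1.05-fold and 1 well above background on neither array. The part of these markers in the ratios of Ccl2, Ccl7 and Ccl12 was not tested.

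The authors' deposited table, which holds each signal relative to its own array, has Ccl7 at 2.92 and 3.22 on the RCCS array, against 0.18 and 0.28 on the control array. The authors' deposited table has Ccl2 at 22.66 on the RCCS array, against 6.04 on the control array, and Ccl5 at 6.02 and 8.78 on the RCCS array, against 78.99 and 117.72 on the control array. The directions are those of the scanner values. For Ccl12 the authors' deposited table has 0.11 on the RCCS array and 0.04 in the control, values given to 2 decimals.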

How the data were processed

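Total RNA of 1 RCCS and 1 control sample was hybridised to 1 array each. The spot values the authors deposited are linear intensities that Agilent Feature Extraction 9.5.3.1 made per the file headers, with the background subtracted and the surface trend removed and with no scaling between arrays. Flags for spots well above background, saturated, called outliers or read from the low-gain scan were used as the authors deposited them. The authors also deposited ratios, 1 for each probe on each array, without stating scale, centring or direction. Compared with the scanner output, these ratios equal the processed signal over 964 for RCCS and over 849 for control, with a median of 0.06 in both columns, so genes were not centred and neither array was divided by the other. All value columns were matched to a sample (0 unmatched).

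From these, log2 of the processed signal minus each array's 75th percentile over 41171 non-control probes was computed with Python 3.11.15, RCCS minus control. Outlier spots were left out, spots of a probe were averaged, and a probe counted as measured where at least 50% of its spots were well above background on both arrays. Measured probes of a gene were averaged on the log2 scale. A probe well above background on 1 array has a bound, against the higher of its own signal and the lowest signal well above background on the other array. Accessions of 22950 probes were named through the RefSeq table of GRCm38.p6, and probes without a match were named as in the file. No probe coordinates are given, because for the probes no build is given in the sources used here. Gene positions of the RefSeq table gave the order on chromosome 11 and the genes between Ccl1 and Ccl5. Promoter coordinates are those of the RefSeq promoter table. The calculation was tested on simulated data. Quantile and loess normalization and normexp correction used limma 3.58.1 in R 4.3.3.

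The members, their grouping by receptor and the lists beside them were chosen with earlier results of these data known. Named are all members, the genes of the other lists at least 2-fold higher or lower and otherwise up to 4 with the largest ratios, and Irf3, Irf7, Rela, Nfkbia, Ccr1 and Ccr2 (some genes that this rule takes are not reported here); Slfn5, Slfn9, Ccl8, Tbk1, Ifnar1, Ifnar2, Ifnb1 and the ligands and markers with bounds were named after their values were seen. With 1 array a group, the number of arrays limits the precision.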

Additional observations from a re-analysis of the deposited data

How the results depend on the processing

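Of the 9 measured CC chemokines, each kept its sign under every alternative that gave it a value: scaling on 7 spike-in probes, on the median or on measured probes alone, loess or quantile normalization, normexp correction (offset of 50) with either scaling, the authors' ratios, the brightest probe, a signal of at least 100, dim probes not filtered, and outlier spots kept. Over 12 such alternatives Ccl7 lay between 3.35 and 4.07, Ccl2 between 1.90 and 2.21, Ccl5 between -3.75 and -3.41, and the median of the members between 0.13 and 0.51. Ccl12 lay between 0.48 and 1.63 and was under 2-fold with normexp correction, whose offset shrinks the ratios of dim probes by construction; the count of members at least 2-fold higher was then 2, and also 2 at a threshold of 3-fold. At a threshold of 1.5-fold, 2 members were lower, Ccl9 with Ccl5. The share of all measured genes past the threshold, 7.65% in both directions together, was 4.43% and 4.14% with normexp correction and 75th percentile or quantile scaling, 11.9% with no filter on dim probes, 24.6% at 1.5-fold and 2.24% at 3-fold. The median of all genes moved by 0.14 with scaling on measured probes, 0.31 with spike-in probes, 0.13 with loess and -0.12 with no filter. No paired analysis was possible because each condition had 1 array and the labels give no replicate numbers, and no replicate could be left out for the same reason.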
